A study of Homo sapiens with 6 samples.

Results

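The protein part of the cytosolic ribosome was measured here as 68 genes out of 18132 with a probe set on the array. They were chosen by name: RPL or RPS followed by a number and at most 1 of the letters A, L, X or Y, together with RPSA, RPLP0, RPLP1 and RPLP2, without kinases or pseudogenes. The large subunit gave 44 of them and the small subunit 24. RefSeq lists 81 protein-coding genes of this kind. The other 13, RPSA and RPLP0 among them, have no probe set named for them alone and were not analysed here. Each gene was read from the brightest of its probe sets, and values are log2 signals, so that 1 unit is a doubling.

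RNA of the human multiple myeloma line NCI-H929, as the labels name the cells, was measured on 6 Affymetrix arrays. For 3 of them, called PRMT5_down, the lentivirus was one designed against PRMT5, an arginine methyltransferase, and for the other 3, called control, it was a control lentivirus. The treatment protocol names a PRMT5 hairpin RNA in the vector pLKO.1, packaged in 293T cells, while titles and design text speak of sponges. It also describes selection with 1 µg/mL puromycin and calls the comparison cells normal NCI-H929. All cells were collected at the same time, and the study looked for possible target genes of PRMT5. No label names separate clones or cultures. The p-values therefore reflect the spread of these arrays, possibly a technical one, and 3 arrays per group limit the precision.

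The targeted gene had a lower signal in PRMT5_down. PRMT5 read 8.63, 9.65 and 9.37 in PRMT5_down replicates 1, 2 and 3, against 9.93, 10.35 and 10.30 in control replicates 1, 2 and 3. The groups did not overlap, and the log2 difference of -0.98 (SE 0.28) did not pass limma over all genes (adjusted p = 1). With the replicate number as a block the SE was 0.12, and the difference did not pass either (limma adjusted p = 0.21). Of 10 plasma cell markers, SDC1, XBP1 and PRDM1 were above background on all 6 arrays, JCHAIN on 5, and CD38, TNFRSF17, MZB1, IRF4, POU2AF1 and SLAMF7 on none. As background served the signals of 333 olfactory receptor genes, whose 95th percentile was 4.89 to 5.01 on the arrays. All 7 erythroid markers measured, ALAS2, AHSP, EPOR, TFRC, KLF1, GATA1 and SLC4A1, were above it on all 6 arrays. They had higher means in PRMT5_down, with 0 of 7 passing limma without the block or with it. With the block, 5 of the 7 had an unadjusted p under 0.05 in limma, against 8.25% of all genes. The smallest adjusted p with the block was 0.088 (limma), for AHSP. The summed linear signal of the erythroid markers was 7055 to 8743 in PRMT5_down and 5614 to 6680 in control. That of the plasma cell markers was 1219 to 2050 in PRMT5_down and 1430 to 1720 in control. Most of the plasma cell sum came from XBP1, at 10.02 to 10.88 log2 units, and no other plasma cell marker read above 5.86. The brightest erythroid marker was TFRC, at 10.79 to 12.21. Most plasma cell markers thus lay below background in cells labelled as a myeloma line, while the erythroid markers lay above it. Neither the identity of the cells nor the part of these genes in the results below was tested.

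Ribosomal proteins fold onto ribosomal RNA to form a small subunit, which decodes the mRNA, and a large subunit, which joins amino acids. Their mRNAs are among the most abundant of growing cells, and most begin with a terminal oligopyrimidine tract, a C followed by further C and T bases, through which mTOR and LARP1 control their translation. Free ribosomal proteins such as RPL5 and RPL11 bind MDM2 when ribosome assembly is disturbed, and heavy secretion makes plasma cells depend on translation.

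A run of C and T that may hold the tract can be looked for in the DNA around the annotated start. Such a run can begin before the start, in bases outside the annotated mRNA. RefSeq (GRCh38.p14) listed a start for 56 of the 68 genes, and the 9 windows shown run from 30 bases before the start to the 20 bases from it on, 5′ to 3′ on the gene's strand. Capitals mark the longest run of C and T that touches the 10 bases on either side of the start, where it has at least 8 bases. RPS24, RPL35A, RPS9 and RPL13 are among the genes of smallest p in the comparisons below, and of them only RPL35A was called in the main fits. RPS10 encodes a PRMT5 substrate, and RPS27 with RPS27L and RPL10 with RPL10L are pairs of a main gene and a paralog.
RPS24: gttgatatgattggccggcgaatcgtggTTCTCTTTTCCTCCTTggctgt
RPL35A: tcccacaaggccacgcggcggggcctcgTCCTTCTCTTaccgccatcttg
RPS9: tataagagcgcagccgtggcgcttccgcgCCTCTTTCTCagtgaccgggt
RPL13: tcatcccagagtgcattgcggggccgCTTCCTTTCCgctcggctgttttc
RPS10: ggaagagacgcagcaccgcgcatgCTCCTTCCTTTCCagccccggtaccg
RPS27: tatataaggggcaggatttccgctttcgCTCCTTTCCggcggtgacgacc
RPS27L: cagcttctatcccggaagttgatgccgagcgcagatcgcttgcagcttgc
RPL10: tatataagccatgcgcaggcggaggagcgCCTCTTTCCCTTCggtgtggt
RPL10L: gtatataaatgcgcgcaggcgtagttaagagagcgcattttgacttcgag

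These windows lie at chr10:78033833-78033882 for RPS24, chr3:197950160-197950209 for RPL35A, chr19:54200828-54200877 for RPS9, chr16:89560652-89560701 for RPL13, chr1:153990732-153990781 for RPS27 and chrX:154398347-154398396 for RPL10, all on the plus strand. On the minus strand are chr6:34426050-34426099 for RPS10, chr15:63157458-63157507 for RPS27L and chr14:46651762-46651811 for RPL10L. RPL13 and RPL10 have 3 listed starts each, of which 1 is shown.

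A run of 8 or more pyrimidines at the start was present in 45 of 56 ribosomal protein genes (80.4%), against 5008 of 27305 genes with a listed start (18.3%). The median longest run was 11.5 bases in the ribosomal protein genes and 5 in all genes. The 11 genes without such a run were RPL10L, RPL12, RPL27, RPL3, RPL32, RPL36, RPL6, RPS27L, RPS29, RPS3A and RPS4X. Shorter runs were not counted, so these genes may still have a shorter tract. In RPL27 a run of C and T, tccttctttc, begins directly after the bases searched and was therefore not counted. Its place in this list thus depends on the annotated start and the width searched. Of other motifs, searched on both strands in the 300 bases from 250 before to 50 after the start, CCGGAAG, bound by GABP, was in 39.3% of the ribosomal protein genes and 12.2% of all genes. AAGATGG, bound by YY1, was in 14.3% and 7.11%, and the TATA motif TATAAA in 8.93% and 14%. A match is a string of letters and not evidence of binding.

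**Figure D1:**
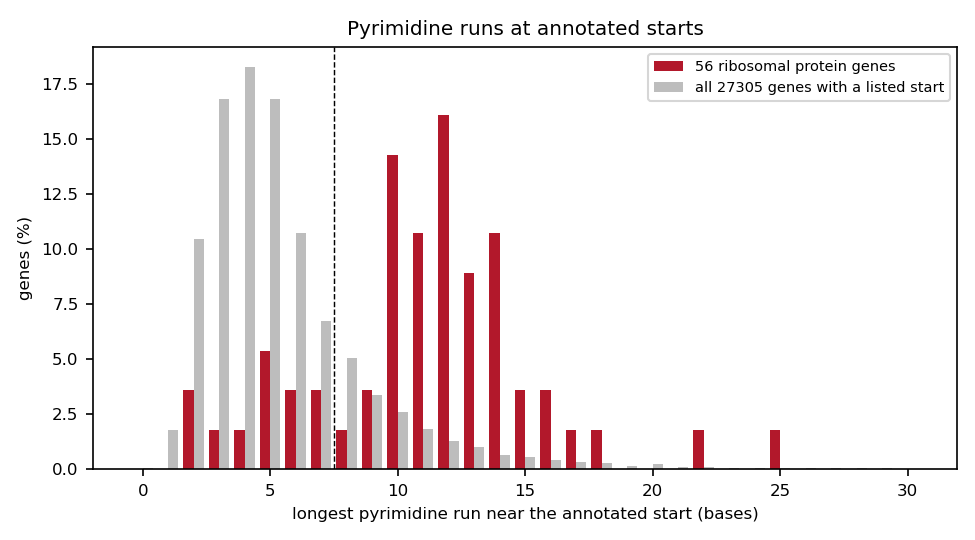
Length in bases of the longest C and T run near the annotated start (x axis) against the percentage of genes (y axis), for 56 ribosomal protein genes (red bars) and 27305 genes with a listed start (grey bars). Right of the dashed line, at runs of 8 or more, lie 80.4% of the ribosomal protein genes and 18.3% of all genes.

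Ribosomal protein genes filled the top of the signal range. A mean of at least 13 over the 6 arrays was reached by 34 of the 68, against 9 of all other genes, and a mean of at least 12 by 58 of the 68, against 100 other genes. The brightest probe set of any kind read 13.66 to 13.70 on the arrays, so these genes lay close to the upper end of what the arrays gave. Probe sets differ in brightness for the same amount of RNA, so levels are not compared between genes.

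Signals hardly varied between arrays, after a normalization that evens out the distributions of the arrays. The highest and lowest of the 6 arrays lay less than 0.2 log2 units apart for 51 genes and less than 0.1 apart for 26. RPL37A, a zinc-binding protein of the large subunit, read 13.29, 13.30 and 13.29 in PRMT5_down and 13.30, 13.30 and 13.31 in control, the smallest range, at 0.02. RPL7A followed with 13.22, 13.22 and 13.24 in PRMT5_down and 13.25, 13.24 and 13.25 in control. The largest range, 0.86, belonged to RPS27L, a paralog of RPS27, and after it came RPL35A with 0.68, RPL27A with 0.65, RPL13 with 0.59 and RPL39L with 0.50.

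Of the 68 genes, 66 exceeded background on every array and 2 on none. RPL27A read 3.96, 3.54 and 3.87 in PRMT5_down and 3.73, 3.80 and 3.31 in control. RPL27A is an integral protein of the large subunit, so a low reading on this probe set, the only one named for it alone, does not show that the mRNA is absent. RPL3L, a paralog of RPL3 used in heart and skeletal muscle, read 3.96, 3.70 and 4.15 in PRMT5_down and 4.19, 3.76 and 4.04 in control. RPL10L, a testis paralog of RPL10, passed by a narrow margin, at 5.17, 5.36 and 5.37 in PRMT5_down and 5.37, 5.29 and 5.41 in control.

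**Figure D2:**
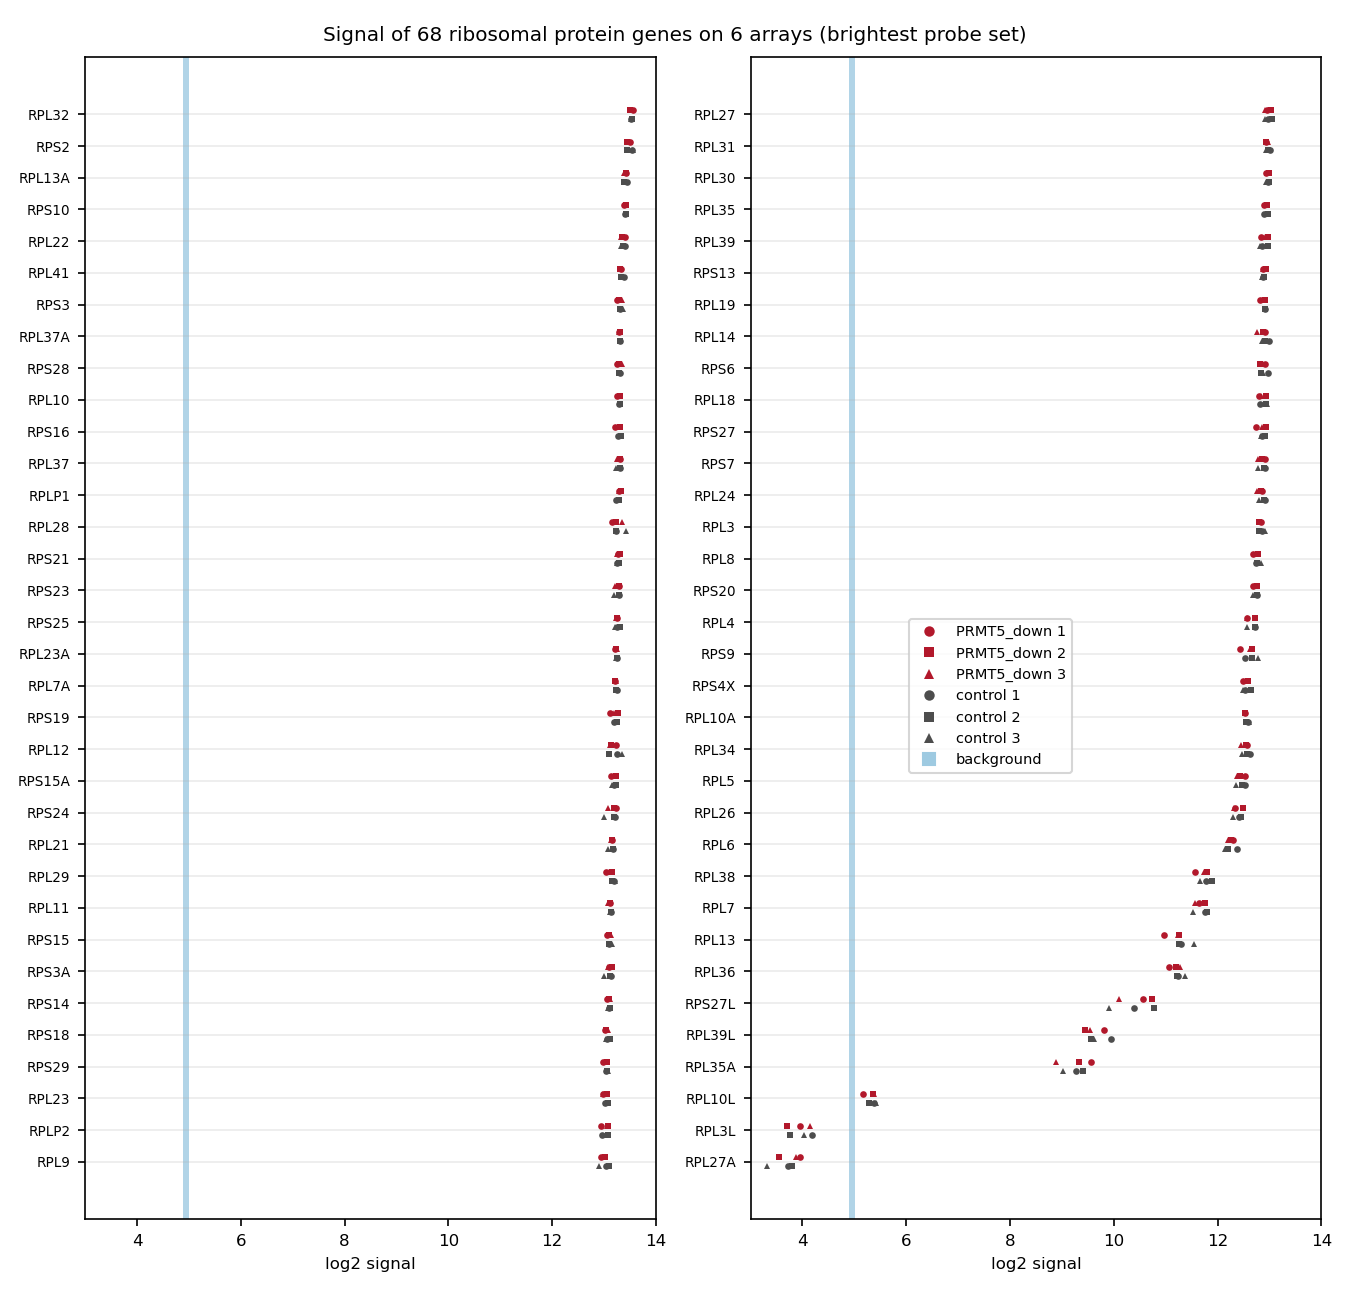
Log2 signal (x axis) of the brightest probe set of each of 68 ribosomal protein genes (down the page, by mean signal) on 3 PRMT5_down arrays (red) and 3 control arrays (grey), with the replicate number as the symbol and the background range as a blue band. Most genes sit between 12 and 13.6 with their 6 points nearly on top of each other, and RPL27A and RPL3L sit left of the band.

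limma called no ribosomal protein gene between PRMT5_down and control arrays. The median over the genes was 12.95, 13.03 and 12.99 in PRMT5_down replicates 1, 2 and 3, against 13.01, 13.06 and 12.95 in control replicates 1, 2 and 3. The groups overlapped. Single genes differed by -0.22 to 0.18 log2 units, with SE from 0.07 to 0.26. limma called 0 of the 68 at an adjusted p under 0.05, as it called 0% of all 18132 genes, and 0 of the 68 had an unadjusted p under 0.05, a share of 0.822% among all genes. Without a block the spread between replicate numbers counts as error, which limits what this fit can detect. With the replicate number as a block, SE ran from 0.08 to 0.14. That fit also called 0 of the 68, and 0 of the 68 had an unadjusted p under 0.05, against 8.25% of all genes. In bulk RNA, fewer cells of a kind and less RNA per cell cannot be told apart.

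The direction was mostly down, at a size below the spread. The mean was lower in PRMT5_down for 53 of the 68 genes (77.9%) and higher for 14, and it was lower for 55.5% of all genes. The median difference was -0.02 for the ribosomal protein genes and -0.02 for all genes. Only 4 of the 68 (5.88%) differed by more than 0.1 log2 units, against 40% of all genes. With a mean signal of at least 12, 0 of the 58 ribosomal protein genes did so, against 16 of the 100 other genes. These bright sets are closer in signal than all genes but are not matched in brightness. Among the 58 with a mean signal of at least 12, 46 were lower, against 40 of the 100 other genes that reached 12.

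Most genes were lower within replicate number 1. There, 57 genes were lower in PRMT5_down, with a median difference of -0.04, close to the -0.03 of all genes on the same arrays. Within number 2, 40 genes were lower, with a median of -0.01 against 0.00 for all genes, and within number 3, 33 were lower, with a median of 0.00 against -0.01 for all genes. A lower value in all 3 numbers was found for 16 of the 68 (23.5%), against 15.2% of all genes, and a higher value in all 3 for 1, RPLP1, against 11.7%. Leaving out any 1 array left between 40 and 60 of the 68 lower. The gap between the 3′ and 5′ actin control probe sets, a measure of RNA integrity, was 1.22, 1.02 and 0.84 in PRMT5_down replicates 1, 2 and 3 and 1.09, 1.02 and 0.73 in control replicates 1, 2 and 3, and its part in these differences was not tested.

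Both subunits leaned downwards. Of 44 large subunit genes 36 were lower and 7 higher in PRMT5_down, with a median of -0.03, and of 24 small subunit genes 17 were lower and 7 higher, with a median of -0.01. The large subunit medians were 12.91, 12.95 and 12.92 in PRMT5_down and 12.94, 12.98 and 12.92 in control. Those of the small subunit were 13.08, 13.12 and 13.10 in PRMT5_down and 13.12, 13.12 and 13.08 in control. None of these pairs of groups was separate.

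Groups without overlap occurred for 1 of the 68 genes (1.47%), which was lower in PRMT5_down, against 3.92% of all genes in either direction and 2.66% of all genes lower. This was RPL10A, the protein of the L1 stalk through which spent tRNA leaves. RPL10A read 12.53, 12.52 and 12.53 in PRMT5_down and 12.58, 12.55 and 12.60 in control, a difference of -0.05 log2 units. The largest difference downwards was that of RPL13, a large subunit protein, which read 10.96, 11.26 and 11.23 in PRMT5_down and 11.30, 11.26 and 11.55 in control. The RPL13 difference of -0.22 (SE 0.13) missed the threshold (limma adjusted p = 1), and its replicates of number 2 were equal.

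The other genes with the smallest p on the lower side were RPL29 and RPL36, each at -0.09, RPL19 at -0.06 and RPL38 at -0.08, all of the large subunit. On the higher side stood RPL27A at 0.18 (SE 0.18) from signals below background, RPLP1 at 0.04, RPS27L at 0.11 (SE 0.26), RPS3A at 0.02 and RPS24 at 0.03. Without control replicate 3, RPS3A was -0.02, RPS24 -0.04 and RPS27L -0.11, while RPLP1 ran from 0.03 to 0.05 and RPL27A from 0.03 to 0.30 over the fits with 1 array left out. None of these 9 genes passed (limma adjusted p = 1 for each).

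Genes of ribosomal proteins that are themselves methylated on arginine were not called. RPS10, a small subunit protein that PRMT5 methylates, read 13.38, 13.42 and 13.42 in PRMT5_down and 13.41, 13.43 and 13.42 in control, a difference of -0.01 (SE 0.07). RPS2, the PRMT3 substrate, differed by -0.02 (SE 0.08), and RPS3, at the mRNA entry and a PRMT1 substrate, by -0.03 (SE 0.08). These are mRNA signals and carry no measure of methylation.

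Genes of proteins that bind MDM2 were not called either, with RPL5 at -0.01, RPL11 at -0.03 and RPL23 at -0.03, each with an SE of 0.07 to 0.09. A chosen list held 11 genes that are mutated in Diamond-Blackfan anaemia, a failure of red cell production, and may not hold all of them. Of the 8 analysed, 6 were lower and 2 higher, between -0.03 and 0.03. RPS14, the ribosomal protein gene of the 5q- syndrome, read 13.06, 13.09 and 13.12 in PRMT5_down and 13.10, 13.11 and 13.08 in control, overlapping throughout. The stalk proteins that recruit elongation factors, RPLP1 and RPLP2, differed by 0.04 (SE 0.07) and 0.00 (SE 0.08).

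**Figure D3:**
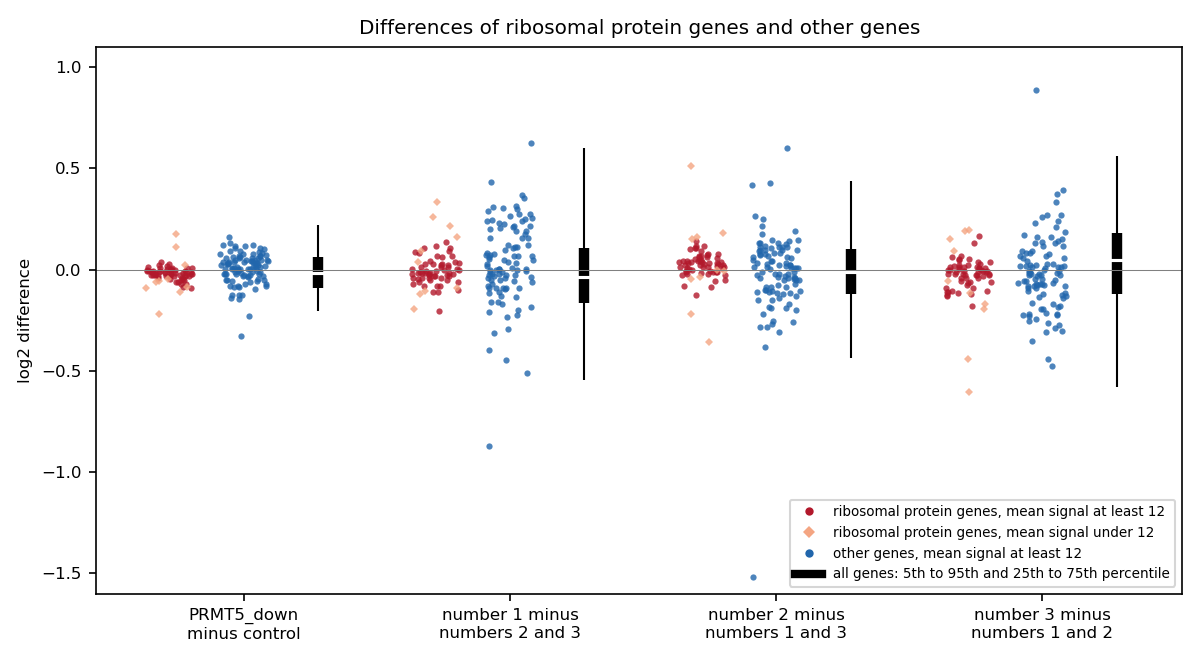
Log2 difference (y axis) in 4 comparisons (x axis) for ribosomal protein genes with a mean signal of at least 12 (dark red circles) or under 12 (orange diamonds), for 100 other genes of at least 12 (blue), and as the 5th to 95th (thin) and 25th to 75th (thick) percentile of all genes, with a white bar at the median. Bright ribosomal protein genes stay within -0.21 and 0.17 in all 4 comparisons, and the largest differences of the family belong to the dimmer genes.

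Arrays also differed by replicate number, which the labels do not explain. Each number was compared with the other 2 numbers over both groups, with the group as a term in limma. These are differences between arrays and not between conditions, and the 3 comparisons share arrays. Number 1 against the others called 25.4% of all genes, number 2 called 14% and number 3 called 27.2%. Of the 68 ribosomal protein genes, number 1 called 1, number 2 called 1 higher and 1 lower, against 7.26% and 6.77% of all genes, and number 3 called 2. All of these calls were lost in each fit that left out 1 array, while the differences kept their direction. RPL39L ran from 0.32 to 0.35 in number 1, and RPS27L from 0.41 to 0.62 in number 2 and from -0.67 to -0.54 in number 3. The same fits called 0 to 2208 of all genes in number 1, 0 in number 2 and 0 to 819 in number 3.

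RPS27L gave the largest difference by number in the family. It read 10.74 and 10.77 in PRMT5_down and control of number 2, 10.56 and 10.39 in number 1, and 10.11 and 9.91 in number 3. The 2 groups of a number lay close together and the numbers did not overlap. RPS27L was higher in number 2 by 0.51 (SE 0.09, limma adjusted p = 0.01) and lower in number 3, with a difference of -0.61 (SE 0.09, limma adjusted p = 0.0029). With 1 array left out these adjusted p-values were 0.083 to 0.27 in number 2 and 0.051 to 0.13 in number 3. Its partner RPS27 differed by 0.11 (SE 0.09) in number 2 and by -0.02 in number 3. RPS27 was read from a different probe set, whose name ends in _x_at and whose probes can also bind related sequences.

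RPL35A, a large subunit protein mutated in Diamond-Blackfan anaemia, was lower in number 3. It read 8.88 and 9.02 in PRMT5_down and control of number 3, against 9.56 and 9.28 in number 1 and 9.33 and 9.40 in number 2. The difference was -0.44 (SE 0.11, limma adjusted p = 0.019), and it ran from -0.57 to -0.32 with 1 array left out (limma adjusted p 0.054 to 0.25). As the mean of its 3 probe sets, RPL35A differed by -0.11 in number 3 and was no longer called (limma adjusted p = 0.3).

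RPL39L, a paralog of the exit tunnel protein RPL39 best known from testis, was higher in number 1. It read 9.81 and 9.94 in PRMT5_down and control of number 1, against 9.44 and 9.57 in number 2 and 9.54 and 9.61 in number 3. The difference was 0.34 (SE 0.08, limma adjusted p = 0.021), with adjusted p 0.066 to 0.21 when 1 array was left out. RPL39, also read from a probe set ending in _x_at, differed by -0.08 (SE 0.09) in number 1. RPL3L was called lower in number 2, at -0.36 (SE 0.10, limma adjusted p = 0.049), from signals below background on every array.

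**Figure D4:**
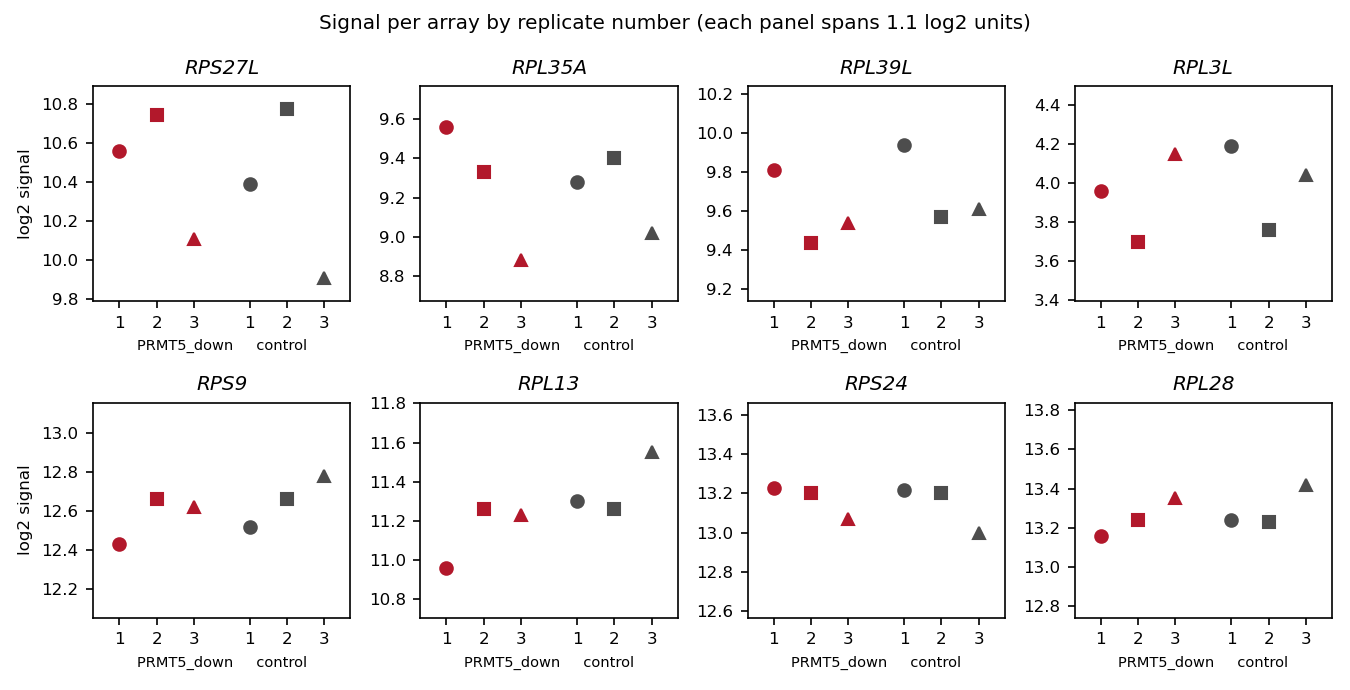
Log2 signal (y axis, each panel spanning 1.1 units) of 8 ribosomal protein genes in PRMT5_down (red) and control (grey) arrays of replicate numbers 1, 2 and 3 (x axis, circle, square and triangle). RPS27L is lowest in both arrays of number 3, and RPL39L is highest in both arrays of number 1.

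The 4 called genes, RPS27L, RPL35A, RPL39L and RPL3L, are among the 10 ribosomal protein genes with a mean signal under 12. Of the 58 brighter ones limma called 0 in each number comparison. At an unadjusted p under 0.05 there was 1 of the 58 in number 1, 0 in number 2 and 0 in number 3. Of the 100 other genes that reached 12, 15 were called in number 1, 6 in number 2 and 12 in number 3. The sets are not matched in brightness, since 34 of the 58 ribosomal protein genes had a mean of at least 13, against 9 of the 100 other genes, and ranges were smaller in brighter probe sets. The difference in calls was not tested.

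In number 1, 29 genes were higher and 39 lower, against 41.3% and 58% of all genes. The lower genes of smallest p were RPS9 at -0.21 (SE 0.09), RPL13 at -0.20, RPL36 at -0.12, and RPLP2 and RPL28 at -0.11, none of which passed. With the mean of its 9 probe sets RPL28 was called, at -0.35 (limma adjusted p = 0.018), and with a variance trend and robust estimation RPS9 was called (limma adjusted p = 0.019). RPS9, a small subunit protein near the mRNA entry, read 12.43 and 12.52 in PRMT5_down and control of number 1, against 12.66 and 12.66 in number 2 and 12.62 and 12.78 in number 3. Both arrays of number 1 were lowest. RPL35A at 0.26 (SE 0.11), RPL3L at 0.16, RPL6 at 0.14 and RPL27A at 0.22 were on the higher side without passing.

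Number 2 was slightly higher as a whole, with 45 genes higher (66.2%) and 21 lower (30.9%), against 46.1% and 53.2% of all genes, and a median of 0.03 log2 units, against -0.01 for all genes. Of 24 small subunit genes 19 were higher, and of 44 large subunit genes 26. Both arrays of number 2 lay above the other 4 for 15 of the 68 genes (22.1%), against 10.8% of all genes, and below them for 3 (4.41%), against 10.8%. Beside RPS27L, those with the smallest p were RPL38 at 0.16, RPL7 at 0.15, RPL26 at 0.14 and RPL35A at 0.18. RPL39L at -0.22, RPL12 of the stalk base at -0.13, RPS6, the S6 kinase substrate, at -0.09 and RPS2 at -0.08 were lower without passing.

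Number 3 lay on the other side, with 43 genes lower (63.2%) and 25 higher (36.8%), against 39.7% and 59.9% of all genes, and a median of -0.02, against 0.05 for all genes. Both arrays of number 3 lay below the other 4 for 17 of the 68 genes (25%), against 14.5% of all genes, and above them for 4 (5.88%), against 20.8%. In number 1 those counts were 9 above (13.2%) and 7 below (10.3%), against 13.9% and 18.1% of all genes. Of the 8 genes analysed from the chosen Diamond-Blackfan list, 7 were lower in number 3 (87.5%), against 63.2% of the 68 and 39.7% of all genes. Among the 8, 1, RPL35A, was called lower (12.5%), close to the 13.9% of all genes called lower. RPS24, whose protein is needed to mature the small subunit RNA, read 13.07 and 13 in PRMT5_down and control of number 3, against 13.23 and 13.22 in number 1 and 13.20 and 13.20 in number 2.

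RPS24 did not pass in number 3, at -0.18 (SE 0.08, limma adjusted p = 0.16), nor did RPL7 at -0.19 or RPL5 at -0.13. RPL28, a large subunit protein, was on the higher side at 0.17 (SE 0.08), with 13.35 and 13.42 in PRMT5_down and control of number 3, against 13.16 and 13.24 in number 1 and 13.24 and 13.23 in number 2. RPL13 at 0.20, RPL3L at 0.19, RPL36 at 0.15 and RPS9 at 0.13 also leaned higher without passing. The actin gap between 3′ and 5′ probe sets also differed by number, with 0.84 and 0.73 in PRMT5_down and control of number 3, against 1.22 and 1.09 in number 1 and 1.02 and 1.02 in number 2. Its part in the differences by number was not tested.

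The family has 176 probe sets, and their spread depended on brightness. Probe sets with a mean of 13 or more had a median range over the 6 arrays of 0.09 log2 units in the family and 0.11 among all single-symbol probe sets, a set of 66 of which 48 are the family's own. Between 12 and 13 the medians were 0.15 and 0.24, and between 11 and 12 they were 0.30 and 0.45. Between 9 and 11 they were 0.44 and 0.60, and between 5 and 9 they were 0.70 and 0.66. Under 5 they were 0.425 and 0.31, so the range was largest between 5 and 9 and not in the dimmest class. In both classes under 9 the family's median range was not below that of all probe sets. Of the 68 genes, 18 had only 1 probe set.

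Probe sets of 1 gene could differ widely. RPL28 has 9, and its brightest stayed within 0.26, while a dim one read 5.03, 6.80 and 5.16 in PRMT5_down replicates 1, 2 and 3 and 5.53, 6.83 and 5.20 in control replicates 1, 2 and 3, high in number 2. RPL37A, the flattest gene, has a dim probe set with 4.49, 5.57 and 4.69 in PRMT5_down and 5.00, 6.11 and 4.44 in control, again high in number 2. RPS28, RPL32 and RPL31 followed, with differences by number that spread over 0.98, 0.95 and 0.92 log2 units between their probe sets.

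For the difference between PRMT5_down and control, the spread between probe sets was largest in RPS18, at 0.37 log2 units, then RPS29 at 0.36, RPS15A at 0.34, RPL37A at 0.30 and RPL10 at 0.29. RPS18 read 13.01, 13.04 and 13.07 in PRMT5_down and 13.05, 13.11 and 13.03 in control on its bright probe set. On its dim one it read 4.72, 5.26 and 4.98 in PRMT5_down and 5.23, 5.64 and 5.26 in control. The dim probe set of RPS18 differed by -0.39 and the bright one by -0.02.

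**Figure D5:**
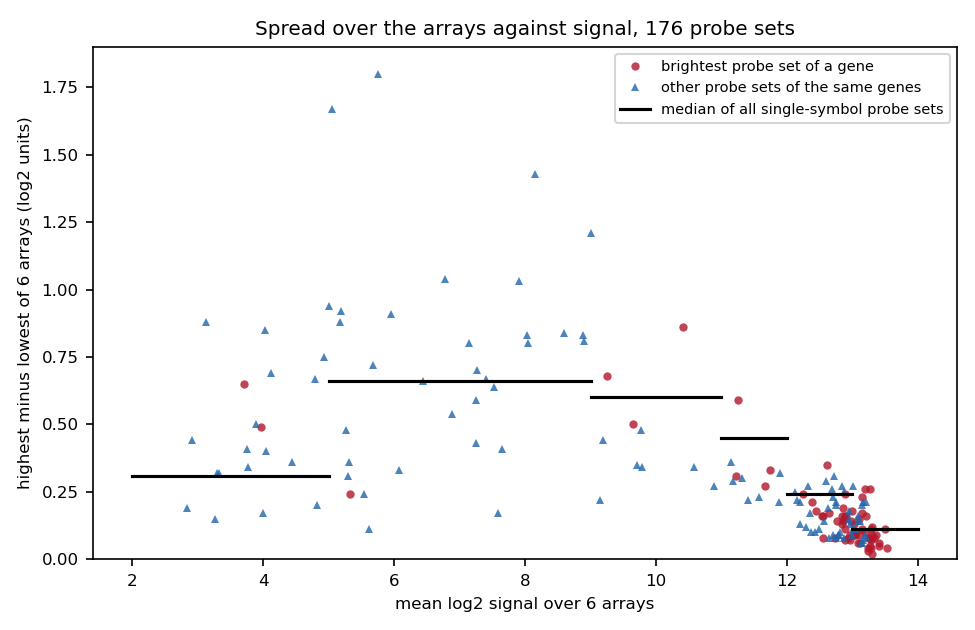
Highest minus lowest of the 6 arrays in log2 units (y axis) against mean log2 signal (x axis) for 176 probe sets of ribosomal protein genes, the brightest of each gene in red and the others as blue triangles, with black lines at the median of all single-symbol probe sets per brightness class. The brightest sets crowd the lower right corner, and the blue ones below 9 reach ranges of over 1.

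For 34 of the 68 genes the brightest probe set has a name ending in _x_at, the maker's mark for probes that can also bind related sequences, and ribosomal protein genes have many processed pseudogenes. Such signals may sum several transcripts. Leaving those probe sets out, a step chosen after the data were seen, kept 50 genes, 16 of them on another probe set, and 12 of these 16 had a mean signal under 9. The calls were then 5 of 50 in number 1, 9 in number 2 and 3 in number 3, with 25.4%, 14.2% and 27% of all genes called. Of the 13 genes called in any number, 9 were read from another probe set. Among these 9, RPL14, RPS20 and RPS4X were above background on none of the 6 arrays, RPL3 on 2 and RPS18 on 5. Between PRMT5_down and control limma again called 0, with 0 of the 50 at an unadjusted p under 0.05.

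Related genes outside the naming rule also differed by number. RPL7L1 and RPL26L1, paralogs of RPL7 and RPL26, were higher in number 1 by 0.46 (SE 0.09, limma adjusted p = 0.0069) and 0.56 (SE 0.13, limma adjusted p = 0.016). Both were called lower in number 3, RPL7L1 at -0.40 (SE 0.09, limma adjusted p = 0.013) and RPL26L1 at -0.61 (SE 0.13, limma adjusted p = 0.012). In number 3, 13.9% of all genes were called lower, and a list of 4 is too short to set apart from such shares. RPL22L1 at 0.30 and RPL36AL at -0.25 did not pass in number 1, where 25.4% of all genes were called. FAU, whose product is cleaved to a small subunit protein, differed by -0.02 between PRMT5_down and control and by -0.17 in number 1, and did not pass.

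Other mRNAs with an oligopyrimidine tract were not called between the groups either. Of 11 such genes, 9 were lower and 2 higher in PRMT5_down with a median of -0.03, and 0 passed limma. EIF3F, an initiation factor subunit, was at -0.26 (SE 0.17) there and was lower in number 1, at -0.38 (SE 0.10, limma adjusted p = 0.029). Of 5 elongation factor genes, 4 were lower and 1 higher in PRMT5_down without passing, and in number 1, where 25.4% of all genes were called, EEF1D alone of the 5 passed, at -0.49 (limma adjusted p = 0.0098). EEF1D was also called in number 3, in the other direction, at 0.34 (limma adjusted p = 0.041).

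Of 6 regulators of these mRNAs, 2 were called in number 1, 3 in number 2 and 2 in number 3, and 0 between PRMT5_down and control, with limma. Of all genes the number comparisons called 25.4%, 14% and 27.2%, and a list of 6 is too short to set apart from these shares. EIF4EBP1, a translation repressor that mTOR switches off, read 10.55 and 10.60 in PRMT5_down and control of number 2, against 11.51 and 11.55 in number 1 and 11.49 and 11.53 in number 3. The EIF4EBP1 difference in number 2 was -0.95 (SE 0.08, limma adjusted p = 0.00087). Between PRMT5_down and control it was -0.04, with an SE of 0.37 without and 0.08 with the replicate number as a block. MTOR was higher in number 2 by 0.47 (SE 0.10, limma adjusted p = 0.017). Of 5 chaperones of single ribosomal proteins, TSR2, which carries RPS26, was at -0.62 (limma adjusted p = 0.0024) and GRWD1, which carries RPL3, at -0.58 (limma adjusted p = 0.0035) in number 1, where 25.4% of all genes were called, and RPL3 itself differed by 0.02 (SE 0.09). TSR2 was higher in number 2, at 0.67 (limma adjusted p = 0.0039), and GRWD1 in number 3, at 0.53 (limma adjusted p = 0.0051).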

How the data were processed

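The 6 arrays were deposited by the authors as log2 signals per probe set, to 2 decimals, made with RMA per the submitters' processing notes. Neither its version nor a chip definition is stated by the labels. RMA evens out the distributions of the arrays and can hide a shift common to most genes. Of the 66 single-symbol probe sets with a mean of 13 or more, 48 are those of ribosomal protein genes. A shift shared by this family alone could therefore be hidden too, which was not tested. Of 49372 probe sets, 44994 had 1 symbol, 1832 several, 2473 none here and 79 were controls. The brightest single-symbol probe set by mean over the 6 arrays stood for each of 18132 genes, and 38 probe sets that pair a ribosomal protein symbol with another symbol were not used.

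Differences were fitted over all genes in limma 3.58.1 (lmFit and eBayes, R 4.3.3) with Benjamini-Hochberg adjustment, called at an adjusted p under 0.05 and tested on simulated data. PRMT5_down was compared with control without a block, and each number with the other 2 with the group as a term. Deviations from the group means correlated at r = 0.82, 0.72 and 0.79 between same-numbered arrays, over the minimum of 0.1. The number was therefore used as a block in a second fit of PRMT5_down against control, which rests on the data and not on a label. The main fit has no block, so its SE for this comparison includes the spread between numbers. The members and lists were chosen with earlier results of these data known. Named were the 5 members of smallest p in each direction of each comparison, those below background, paralog pairs, members of the named disease and substrate lists, and those of largest or smallest spread. RPL10A and RPL7A were named after their values were seen. Alternatives were another normalization, averaged probe sets, a filter on dim genes, another variance model, the block or no group term, left-out arrays and left-out _x_at probe sets.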

Additional observations from a re-analysis of the deposited data

How the results depend on the processing

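No setting called a ribosomal protein gene between PRMT5_down and control, and the median difference stayed below 0 in all of them, at -0.03 to -0.01 with 1 array left out. With the replicate block limma called 0 genes of any kind and 0 of the 68. Directions of single genes turned for RPS3A with the mean of probe sets (-0.005) and without control replicate 3 (-0.018), for RPS24 without PRMT5_down replicate 1 (-0.005) and control replicate 3 (-0.043), and for RPS27L without PRMT5_down replicate 2 (-0.022) and control replicate 3 (-0.11). With 1 array left out RPS3A ran from -0.018 to 0.047, RPS24 from -0.043 to 0.075 and RPS27L from -0.11 to 0.32. In number 2, RPL35A turned to -0.028 and RPS2 to 0.143 with the mean of probe sets, and RPS2 to 0.365 (limma adjusted p = 0.026) without _x_at probe sets, a setting chosen after seeing the data.

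Counts of called ribosomal protein genes by number moved. In number 1 the 1 call became 3 with the mean of probe sets, 2 with a variance trend and robust estimation, and 5 without _x_at probe sets. In number 2 the 2 calls became 1 with quantile normalization, with the dimmer 50% of genes left out and with no treatment term, and 9 without _x_at probe sets. In number 3 the 2 calls became 5 with trend and robust estimation. The median of number 2, 0.025, became 0.012, 0.047 and 0.041 with quantile normalization, the mean of probe sets and no _x_at probe sets, and that of number 1, -0.012, became 0.004 with quantile normalization.

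With 1 array left out, limma called 0 ribosomal protein genes in each number, with 1 to 4 at an unadjusted p under 0.05. Over all genes it called 0 to 2208 in number 1, 0 in number 2 and 0 to 819 in number 3, with 1 residual degree of freedom. The lone array of a number is then assumed to vary like the others. Whether signals near the array maximum compress differences was not tested.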

Other observations

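Ribosomal protein genes on chromosome 19, a grouping chosen after the values were seen, leaned the way of their chromosome in numbers 1 and 3. In number 3, 7 of 9 ribosomal protein genes on chromosome 19 were higher, with a median difference of 0.04, against 18 of the 59 elsewhere, with a median of -0.03. Among all genes, 73.8% of 1293 on chromosome 19 were higher in number 3, against 58.8% of those elsewhere. In number 1, 1 of the 9 was higher, against 28 of the 59 elsewhere, and among all genes 28.2% on chromosome 19 were higher, against 42.3% elsewhere. In number 2, 4 of the 9 were higher (44.4%), against 69.5% elsewhere, while all genes hardly differed, at 43.4% on chromosome 19 and 46.3% elsewhere.

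Across the 56 ribosomal protein genes with a listed start, the GC content of the 300 bases around the start and the difference of number 3 had a Spearman correlation of 0.37 and a Pearson correlation of 0.19, and over 14425 genes these were 0.08 and 0.07. In number 1 the family's correlations were -0.28 and -0.29, in number 2 they were -0.1 and 0.02, and between PRMT5_down and control 0.04 and 0.02. In number 3 the other genes with a mean signal of at least 12 had 0.12 and 0.11. Genes are not independent replicates and all points share the same 6 arrays, so these are descriptions. No test was run on either pattern.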
